A study of Mus musculus with 26 samples.

Results

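Amino acids cross the plasma membrane through carriers of the solute carrier (SLC) families, and 10 of these genes were followed across brown preadipocyte lines that differ in their insulin receptor. The members were set by symbol: *Slc7a11*, *Slc3a2*, *Slc7a5*, *Slc7a1*, *Slc7a3*, *Slc1a4*, *Slc1a5*, *Slc38a1*, *Slc38a2* and *Slc6a9*. All 10 were found among the 52962 genes of the count table, and all 10 were among the 15402 genes expressed highly enough to be tested (above 0.5 CPM, counts scaled to library size, in at least 4 libraries). The set was chosen by the measured CPM of *Slc7a11*, which was higher in every receptor line than in cells without receptor. For that comparison its values are a description with no test.

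The cells came from newborn mice carrying floxed insulin receptor (IR) and IGF1 receptor genes, were immortalised with SV40 T antigen, and lost both receptors through adenoviral Cre (double knockout, DKO). All lines compared here carry both deletions. Retrovirus then returned human receptors to DKO cells: full-length B-isoform receptor (IR), a kinase-dead mutant (K1030R, labelled KD), a receptor without its C-terminal tail (∆CT, labelled CT) and a receptor that keeps only the juxtamembrane part of its intracellular region (JMO). Each of the 4 receptors was present in a single selected line, so an effect of the receptor and a difference between lines that arose during their derivation cannot be told apart. Confluent cells were starved of serum for 6 h and were either left without insulin (basal) or given 100 nM insulin for 15 min. DKO cells were sequenced only in the basal state. There were 9 groups and 26 libraries, with 3 dishes in each group except insulin-treated ∆CT, which had 2. Nothing in the labels says that the dishes were separate derivations, so p-values measure the spread between dishes.

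The carriers fall into groups by what they move. *Slc7a11* (xCT) exchanges extracellular cystine for intracellular glutamate and supplies cysteine for glutathione. It works only when joined to the glycoprotein heavy chain encoded by *Slc3a2* (CD98). The same heavy chain carries *Slc7a5* (LAT1), which exchanges leucine and other large neutral amino acids for glutamine. *Slc7a1* and *Slc7a3* take up arginine and lysine, *Slc1a4* and *Slc1a5* exchange alanine, serine, cysteine and glutamine, *Slc38a1* and *Slc38a2* bring in small neutral amino acids with sodium, and *Slc6a9* brings in glycine. Several of them are known targets of ATF4, the transcription factor of the amino acid response, and *Slc7a11* is also a target of NRF2.

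Library totals lay between 17228982 and 24694828 estimated counts, and the common biological coefficient of variation between dishes was 4.44%. Transcripts of *Insr* were counted at 22.3 to 24.8 CPM in DKO and at 65.9 to 81.8 CPM in the basal receptor lines. *Igf1r* stood at 24.7 to 28.6 and 29.7 to 35.7 CPM. Its log2 difference from DKO was 0.37, 0.31, 0.16 and 0.15 in IR, K1030R, ∆CT and JMO (adjusted p = 4.32e-07, 2.01e-05, 0.0179 and 0.0327). The study reports that DKO cells lacked both receptors as mRNA and as protein. Counts here are summed over whole genes, and the source of the DKO counts was not tested. Reads were assigned to mouse transcripts while the introduced receptors are human, and how much of the *Insr* signal came from them was not tested. Of 9 preadipocyte or mesenchymal markers, 7 were above 1 CPM in every library, whereas *Dlk1* and *Ebf2*, and all 4 brown adipocyte markers, including *Ucp1*, stayed below 0.5 CPM. The preadipocyte markers summed to 809 to 904 CPM, and some differed between lines: basal means of *Ly6a* were 45.2 CPM in DKO and 2.85 to 10.8 in the receptor lines, those of *Thy1* 6.68 and 21.4 to 28.6, and those of *Cd34* 3.47 in DKO, 4.95 in JMO and 10.7 to 14 in the other lines. Of 3 immune markers, *Cd68* was at 1.51 to 3.65 CPM (basal mean 3.16 in DKO and 1.94 to 2.09 in the receptor lines), *Ptprc* at 0.0421 to 0.397 and *Adgre1* at 0 throughout. The sum of 3 endothelial markers was 6.94 to 18.2 CPM, nearly all *Pecam1* with *Cdh5* at 0.058 CPM or less, that of 3 muscle markers at most 0.0524 and that of 3 epithelial markers at most 1.05. The part of these differences in the carrier results was not tested. Within their groups, the third dishes of IR basal and of JMO basal were lowest for 9 of the 10 carriers, and the third dishes of ∆CT basal and of JMO with insulin were lowest for 7. In the other groups with 3 dishes, no dish was lowest for more than 6. How often these dishes were lowest over all genes was not counted, so nothing is read from this order.

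*Slc7a11* (chr3:49892526-50443614, minus strand, GRCm38; protein coding, as are all 10) was the member with the widest span between groups. Its CPM values were 11, 9.55 and 8.69 in DKO, 24.9, 24.4 and 26.8 in IR, 27, 24.7 and 25.3 in K1030R, 26.5, 25.3 and 21 in ∆CT, and 23.7, 21.9 and 20.7 in JMO, all without insulin. With insulin they were 25.4, 26.6 and 25.1 in IR, 26.8, 29.9 and 28.7 in K1030R, 26.6 and 26.7 in ∆CT, and 23.1, 22.6 and 18.2 in JMO. Every receptor library thus lay above every DKO library, which is what chose the gene. The closest values were 18.2 CPM in a JMO dish and 11 CPM in a DKO dish. In the basal state the log2 difference from DKO was 1.39 ± 0.093 (SE) in IR, 1.40 ± 0.093 in K1030R and 1.33 ± 0.093 in ∆CT, while JMO had 1.19 ± 0.094. These are bulk libraries, so more expressing cells and more RNA per cell cannot be told apart.

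The start of *Slc7a11* is shown because it is the member on which the choice rests and because its promoter holds the letters of the element that ATF4 and its C/EBP partners bind. RefSeq promoters (GRCm38.p6, 250 bases before to 50 after the start, 300 in all) were matched for 6 of the 10 members: *Slc7a11*, *Slc3a2*, *Slc7a1*, *Slc1a4*, *Slc38a2* and *Slc6a9*, with 9 promoters between them. Both strands were searched for TGATGNAA, the core of the C/EBP-ATF response element, which occurs in 3.97% of 32851 promoters of this length and at least 2 times in 0.07%. In *Slc7a11* the matches began 66 and 47 bases before the start, on opposite strands. *Slc1a4*, the neutral carrier, held it once, in a match that began 4 bases before the start and ran across it. In the windows printed here, read along the gene's strand, capitals mark the matches, which do not overlap each other:
Slc7a11, chr3:50443641-50443699 (minus): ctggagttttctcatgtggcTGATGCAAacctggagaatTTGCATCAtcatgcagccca
Slc1a4, chr11:20332698-20332737 (minus): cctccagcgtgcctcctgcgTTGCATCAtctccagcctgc
The letters TGACNNNGC, the core of the antioxidant response element that NRF2 binds, were in 12.4% of the same promoters and in those of *Slc7a1*, *Slc38a2* and *Slc6a9*. A match of letters shows neither binding nor use, and other parts of the genes were not searched.

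**Figure D1:**
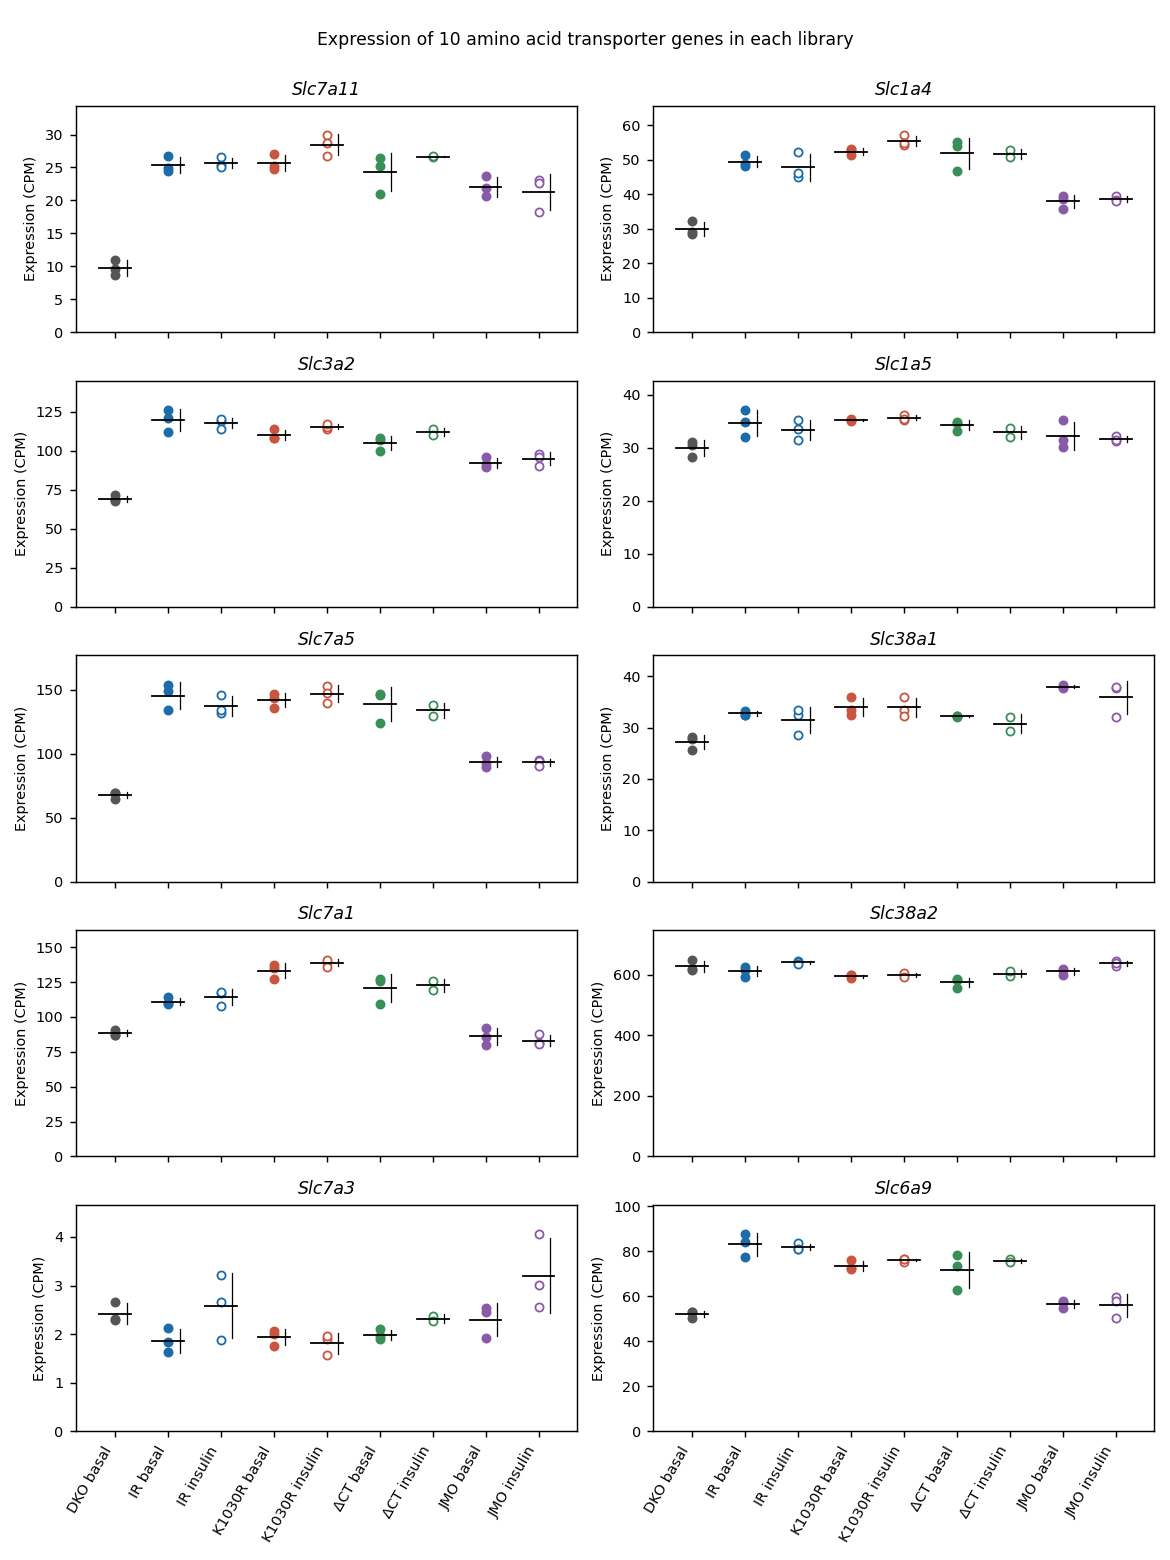
Expression (CPM, counts scaled to library size; axes start at 0) of each of the 10 carrier genes in the 9 groups; points are libraries (filled without insulin, open with insulin), horizontal lines group means and vertical lines ± 1 SD. *Slc7a11* lies at 8.69 to 11 CPM in DKO and at 18.2 to 29.9 CPM elsewhere, several other genes are intermediate in JMO, and *Slc38a2* stays between 558 and 650 CPM throughout.

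*Slc3a2*, the heavy chain (chr19:8706882-8723369, minus strand), was higher in all 4 receptor lines than in DKO, by less than *Slc7a11*. Basal CPM values were 67.7, 71.4 and 68.7 in DKO, 126, 121 and 112 in IR, 114, 108 and 108 in K1030R, 107, 108 and 100 in ∆CT, and 91.6, 95.7 and 89.3 in JMO. No receptor library overlapped DKO, and the JMO dishes lay between DKO and the other 3 lines. The log2 difference from DKO was 0.79 ± 0.042 in IR (adjusted p = 1.66e-17), 0.67 ± 0.042 in K1030R (2.73e-15) and 0.60 ± 0.042 in ∆CT (3.58e-14), while JMO had 0.41 ± 0.042 (1.14e-09).

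*Slc7a5*, the leucine exchanger (chr8:121881150-121907694, minus strand), showed the largest tested difference from DKO among the members in IR, K1030R and ∆CT. Basal CPM values were 69, 69.3 and 64.8 in DKO, 154, 149 and 134 in IR, 147, 136 and 144 in K1030R, 147, 146 and 124 in ∆CT, and 92.7, 98.3 and 90.1 in JMO. JMO was again intermediate, with no overlap with either side. The log2 differences from DKO were 1.11 ± 0.063 in IR (adjusted p = 6.43e-13), 1.08 ± 0.063 in K1030R (1.73e-12) and 1.04 ± 0.063 in ∆CT (2.42e-12), while JMO had 0.47 ± 0.064 (3.98e-06). In fold terms *Slc7a5* was 2.16 times DKO in IR (95% interval 1.97 to 2.36) and 1.39 times in JMO (1.26 to 1.52).

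Because *Slc3a2* serves several light chains, their transcripts were set side by side per kilobase of exon (RPKM), as a description. Heavy chain level was 19.6 ± 0.544 RPKM (SD, n = 3) in DKO, 33.8 ± 2.03 in basal IR and 26.1 ± 0.92 in basal JMO, while the summed level of the light chains *Slc7a5*, *Slc7a6*, *Slc7a7*, *Slc7a8*, *Slc7a10* and *Slc7a11* was 31 ± 0.566, 53.2 ± 3.07 and 40 ± 0.616. The ratio of light to heavy chain transcripts therefore stayed between 1.5 and 1.73 in all 9 groups. The make-up of the light chains differed more: *Slc7a5* made up 58.8% of their level in DKO, 73.8% in basal IR and 63.1% in basal JMO, and *Slc7a6*, a light chain of cationic and neutral exchange, 36.5%, 20% and 30.4%. *Slc7a11* was 2.25% of light chain level in DKO and 3.37% to 3.96% in the receptor lines, so most light chain transcripts in every group belonged to other carriers.

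**Figure D2:**
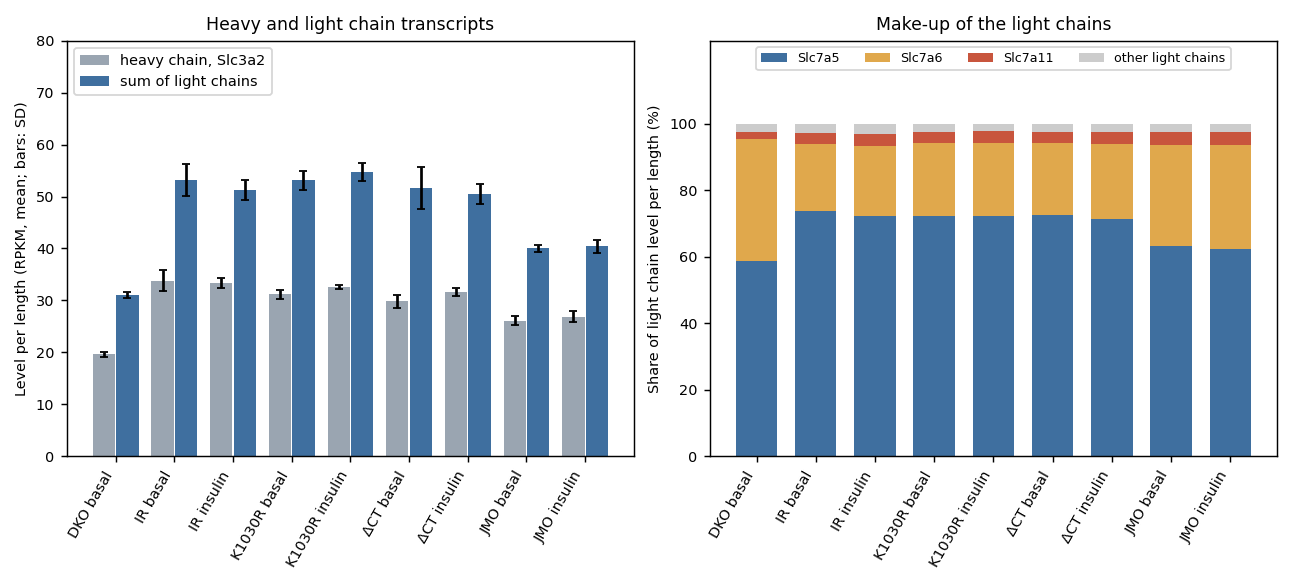
Left, level per kilobase of exon (RPKM; bars are means, error bars SD, 3 libraries per group and 2 in ∆CT with insulin) of the heavy chain *Slc3a2* and of the summed light chains; right, percent of the light chain level from each gene. Both sums rise from DKO (19.6 and 31) to IR (33.8 and 53.2 basal) with JMO between (26.1 and 40 basal), while the *Slc7a5* share goes from 58.8% to 73.8% and 63.1%.

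*Slc7a1*, the main carrier of arginine and lysine (chr5:148327410-148399904, minus strand), was higher than DKO in IR, K1030R and ∆CT and not in JMO. Its basal CPM values were 90.7, 87.1 and 87.2 in DKO, 114, 110 and 109 in IR, 135, 127 and 137 in K1030R, 126, 127 and 109 in ∆CT, and 92.4, 85.8 and 80.1 in JMO. The JMO dishes overlapped DKO, and K1030R dishes were the highest. The log2 differences from DKO were 0.33 ± 0.051 in IR (adjusted p = 2.21e-06), 0.59 ± 0.050 in K1030R (5.48e-11) and 0.45 ± 0.050 in ∆CT (1.12e-08), while JMO had -0.03 ± 0.051 (0.656; 95% interval -0.14 to 0.07). *Slc7a3*, another cationic carrier (chrX:101079210-101086020, minus strand), was the least counted member at 1.56 to 4.05 CPM, or 32 to 72 counts a library, and was called in none of the 4 comparisons (log2 -0.38 to -0.08, adjusted p 0.108 to 0.781). At that depth its intervals against DKO ran from -0.78 to 0.30 on the log2 scale, so moderate differences in either direction could not be detected.

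*Slc1a4*, the alanine, serine and cysteine exchanger whose promoter is shown above (gene at chr11:20302180-20332713, minus strand), was also intermediate in JMO. Basal CPM values were 29, 32.1 and 28.4 in DKO, 48.8, 51.4 and 48.2 in IR, 53.1, 52.7 and 51.3 in K1030R, 55, 54 and 46.7 in ∆CT, and 38.6, 39.4 and 35.7 in JMO. Again no JMO dish reached either DKO or the other 3 lines. The log2 differences from DKO were 0.73 ± 0.059 in IR (adjusted p = 1.28e-12), 0.82 ± 0.060 in K1030R (1.31e-13) and 0.81 ± 0.059 in ∆CT (1.31e-13), while JMO had 0.35 ± 0.061 (2.14e-05). Its relative *Slc1a5*, the glutamine exchanger (chr7:16781340-16798274, plus strand), moved little: 28.3 to 31.1 CPM in DKO against 32.1 to 37.1 in IR, 35.1 to 35.5 in K1030R, 33.2 to 34.9 in ∆CT and 30.1 to 35.2 in JMO. The *Slc1a5* differences of 0.21 (adjusted p = 0.00282), 0.23 (0.00142) and 0.19 (0.00703) passed the test in IR, K1030R and ∆CT, and 0.11 in JMO (0.161) did not. Without the first DKO dish the ∆CT value of *Slc1a5* was 0.15 and lost its call (adjusted p = 0.055). With the ∆CT insulin dishes against basal DKO it was 0.13 and not called (adjusted p = 0.11).

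*Slc38a1* and *Slc38a2*, the sodium-coupled carriers of small neutral amino acids, lie near each other on chromosome 15 (96571418-96642913 and 96687392-96699730, both minus strand) and behaved differently. *Slc38a1* was at 28.2, 27.7 and 25.7 CPM in DKO, 32.5, 33.3 and 32.4 in IR, 35.9, 32.5 and 33.4 in K1030R, 32.2, 32.1 and 32.3 in ∆CT, and 38.3, 37.8 and 37.7 in JMO. Unlike the other called members, its mean was highest in JMO: the log2 difference was 0.49 ± 0.061 there (adjusted p = 7.26e-08) and 0.27, 0.32 and 0.25 in IR, K1030R and ∆CT (adjusted p = 0.000399, 6.44e-05 and 0.00117). *Slc38a2* had the highest level per length of the members in every group, 65.1 to 72.6 RPKM, and barely differed: its log2 difference from DKO was -0.04 ± 0.028 in IR (adjusted p = 0.278), -0.08 ± 0.028 in K1030R (0.0224) and -0.13 ± 0.028 in ∆CT (0.000305), while JMO had -0.04 ± 0.028 (0.31). The K1030R call was lost without the third DKO dish (-0.06, adjusted p = 0.168) or the third K1030R dish (-0.07, 0.0848). With the insulin dishes of the receptor lines set against basal DKO, neither K1030R (-0.07, 0.0521) nor ∆CT (-0.06, 0.153) was called.

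*Slc6a9*, the glycine carrier (chr4:117834506-117875198, plus strand), was highest in IR. Basal CPM values were 52.8, 53.1 and 50.4 in DKO, 87.4, 84.1 and 77.4 in IR, 75.9, 71.9 and 72.7 in K1030R, 78.1, 73.6 and 62.6 in ∆CT, and 57.9, 57.4 and 54.6 in JMO. The IR, K1030R and ∆CT dishes stood clear of DKO, and the JMO dishes lay just above it. The log2 difference from DKO was 0.67 ± 0.060 in IR (adjusted p = 1.49e-10), 0.50 ± 0.061 in K1030R (9.95e-08) and 0.46 ± 0.061 in ∆CT (3.05e-07), while JMO had 0.12 ± 0.062 (0.127). Leaving out the third ∆CT dish, which enters only through the shared estimate of spread, gave 0.12 in JMO with adjusted p = 0.0455. Exons of *Slc6a9* overlap those of *B4galt2*, *Ccdc24* and *Gm17114* on the other strand. The library kit keeps strand.

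**Figure D3:**
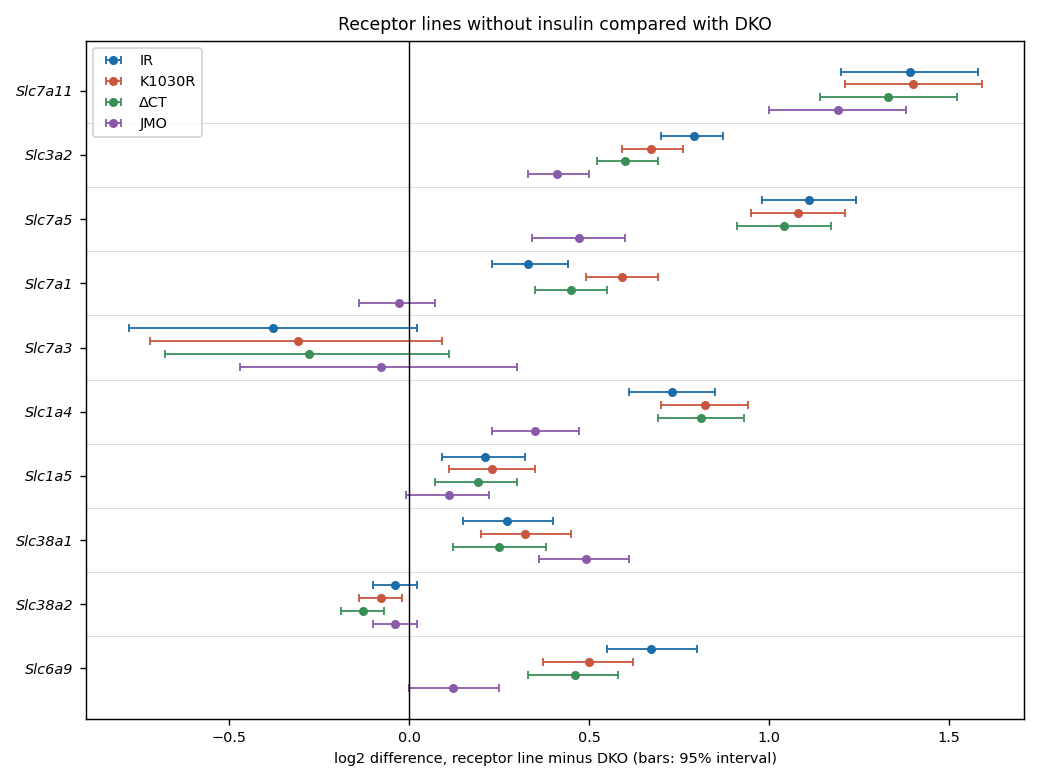
log2 difference of each carrier gene between each basal receptor line and DKO (points; bars are 95% intervals of the single gene, not widened for the number of genes). *Slc7a11* (1.19 to 1.40, a description) and *Slc7a5* (0.47 to 1.11) lie farthest to the right, JMO is the lowest of the 4 lines for 7 genes, and *Slc7a3* has the widest bars.

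Counting the 9 members other than *Slc7a11*, 7 were higher than DKO and 0 lower in IR (25.6% of all genes tested were higher, 24.1% lower), 7 higher and 1 lower in K1030R (21.2% higher, 20.4% lower), 7 higher and 1 lower in ∆CT (23.4% and 22.9%), and 4 higher and 0 lower in JMO (16.8% and 17.4%). The same 7, namely *Slc3a2*, *Slc7a5*, *Slc7a1*, *Slc1a4*, *Slc1a5*, *Slc38a1* and *Slc6a9*, were higher in all of IR, K1030R and ∆CT, as were 14.7% of genes. Nothing is read from these shares, since the members were put together with results of these comparisons known and all 4 comparisons use the same 3 DKO dishes. The median log2 difference over these 9 members was 0.33 in IR, 0.50 in K1030R and 0.45 in ∆CT, while JMO had 0.12, against 0.01 over all genes in each. Requiring a change beyond 1.5-fold (glmTreat) left *Slc3a2*, *Slc7a5* and *Slc1a4* in IR (3 members; 3.59% of genes were higher by this rule), *Slc7a5* and *Slc1a4* in K1030R (2; 2.04%) and in ∆CT (2; 2.38%), and no member in JMO (0; 1.38%), where 4 passed at an unadjusted p below 0.05 in the test without a minimum fold.

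The truncated receptor JMO was then compared with the other receptor lines. The rule set *Slc7a11* in each line against DKO and not the lines against each other, but the members were put together with results of these data known. Without insulin, *Slc3a2*, *Slc7a5*, *Slc7a1*, *Slc1a4* and *Slc6a9* were lower in JMO than in each of IR, K1030R and ∆CT (5 of 10 members, 10.9% of all genes tested), and *Slc38a1* was higher than in each (1 of 10, 10.3%). *Slc7a5*, the leucine exchanger, differed by -0.64 ± 0.061 on the log2 scale from IR, -0.61 ± 0.061 from K1030R and -0.57 ± 0.061 from ∆CT (adjusted p = 8.26e-09, 3.14e-08 and 6.13e-08). For *Slc7a1* the differences were -0.37, -0.62 and -0.48 (adjusted p = 5.62e-07, 2.16e-11 and 3.54e-09), so that the arginine carrier stood at its DKO level in JMO. For *Slc6a9* they were -0.55, -0.37 and -0.34 (8.14e-09, 1.11e-05 and 4.09e-05), and for *Slc1a4* -0.38, -0.47 and -0.45 (1.06e-06, 3.85e-08 and 4.49e-08). For the heavy chain *Slc3a2* they were -0.37, -0.26 and -0.19 (1.8e-09, 4.04e-06 and 0.000306). The higher *Slc38a1* differed by 0.21, 0.16 and 0.24 (0.00336, 0.03 and 0.0016). Its call against K1030R was lost when any of 5 libraries was left out, the second or the third K1030R dish or any JMO dish (adjusted p 0.0503 to 0.135). By pair, 1 member was higher and 5 lower against IR (20.7% and 21.8% of genes), 1 and 6 against K1030R (17.4% and 18%), and 2 and 5 against ∆CT (19.5% and 19.3%). A minimum fold of 1.5 was passed by 0 members in these comparisons (glmTreat), as against 4.59%, 3.64% and 4.51% of genes. Without the minimum fold, 7, 8 and 7 members had an unadjusted p below 0.05.

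*Slc7a11* itself differed less between receptor lines than from DKO. JMO minus IR was -0.20 ± 0.081 (adjusted p = 0.0505), JMO minus K1030R -0.21 ± 0.082 (0.0452) and JMO minus ∆CT -0.13 ± 0.082 (0.208). These calls moved with single libraries. Against K1030R the call was lost when any of 12 libraries was left out (adjusted p 0.0503 to 0.189, highest without the third JMO dish). Against IR it was gained when any of 7 was left out (0.0259 to 0.0498), and against ∆CT it was gained without the third ∆CT dish (-0.23, 0.0241). In that dish *Slc7a11* was at 21 CPM beside 26.5 and 25.3 in the other ∆CT dishes. The glutamine exchanger *Slc1a5* differed by -0.10, -0.12 and -0.08 from IR, K1030R and ∆CT (adjusted p = 0.156, 0.0879 and 0.265). Without the first JMO dish all 3 values passed (-0.17, -0.19 and -0.15, adjusted p = 0.0247, 0.0133 and 0.0491). Without the third IR dish the value against IR did (-0.15, 0.0341). *Slc38a2* was higher in JMO than in ∆CT (0.09, 0.0119), a call lost without the third ∆CT dish (0.0717) or the second JMO dish (0.0516), and *Slc7a3* was not called (0.30, 0.23 and 0.20; 0.239, 0.396 and 0.454).

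The insulin-treated dishes, which are separate libraries, allow the same comparison again. They come from the same single line per receptor and share the fit, so they repeat the dishes and not the lines. *Slc7a11* was then lower in JMO, with log2 differences of -0.27 ± 0.082 from IR, -0.41 ± 0.081 from K1030R and -0.32 ± 0.091 from ∆CT (adjusted p = 0.00962, 0.00012 and 0.00678). The 5 genes lower in the basal dishes were lower here too, with *Slc7a1* at -0.46, -0.74 and -0.56 (1.15e-08, 5.54e-13 and 2.21e-09) and *Slc7a5* at -0.56, -0.65 and -0.52 (9.86e-08, 9.26e-09 and 1.89e-06). Without the third JMO insulin dish, where *Slc7a11* was at 18.2 CPM, a fit added after seeing the data, its call against IR was lost (-0.16, adjusted p = 0.118) and those against K1030R (-0.32, 0.00209) and ∆CT (-0.24, 0.0426) were not. With all dishes, *Slc7a11* and these 5 genes made 6 of 10 members lower than all 3 other lines (5 of 10 without that dish, 9.58% of genes with it), and 0 higher (9.64%), since *Slc38a1* passed against IR (0.19, 0.0103) and ∆CT (0.23, 0.00752) but not K1030R (0.08, 0.28). *Slc7a1* against K1030R was the single difference between receptor lines to pass the minimum fold. The low *Slc7a3* was higher in JMO than in K1030R with insulin (0.82 ± 0.19, adjusted p = 0.000795), at 2.55 to 4.05 against 1.56 to 1.96 CPM.

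**Figure D4:**
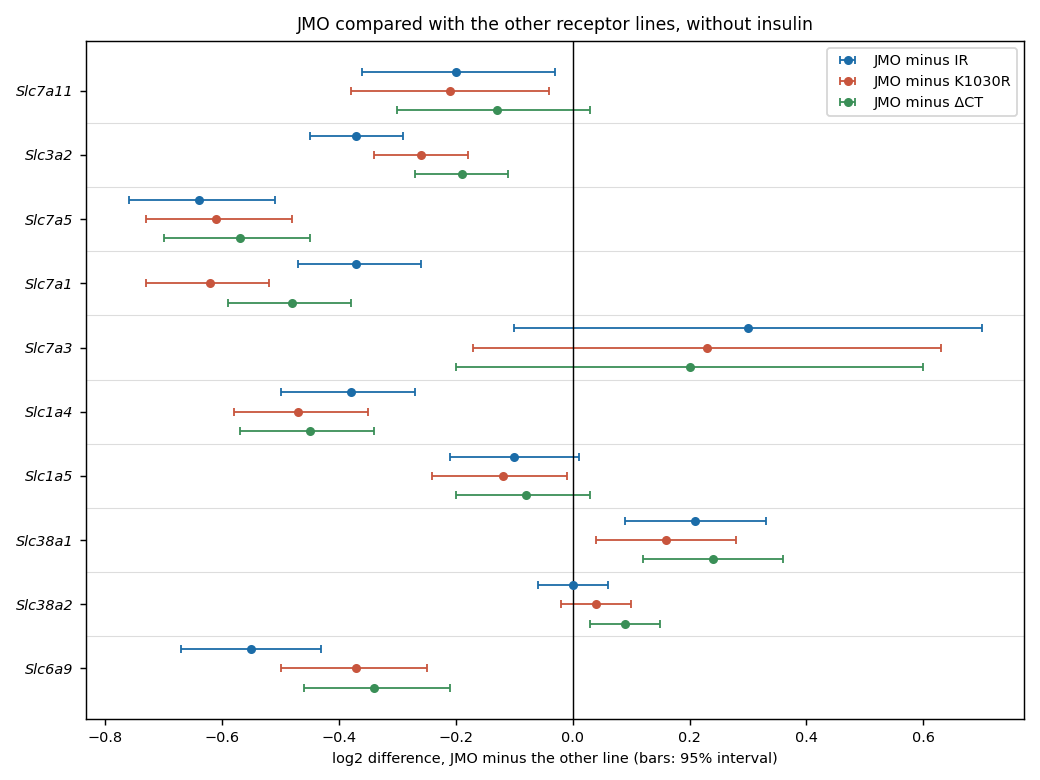
log2 difference of each carrier gene between basal JMO and each of the other basal receptor lines (points; bars are 95% intervals of the single gene). *Slc3a2*, *Slc7a5*, *Slc7a1*, *Slc1a4* and *Slc6a9* lie left of 0 against all 3 lines (-0.64 to -0.19), *Slc38a1* right of 0 (0.16 to 0.24), and *Slc38a2* close to 0.

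Among the lines that keep most of the intracellular region the differences were small. K1030R, which has no kinase activity, differed from IR in 3 of 10 members (13.9% of genes higher, 16.3% lower): *Slc7a1* was higher by 0.26 ± 0.049 (adjusted p = 0.000157), and *Slc3a2* and *Slc6a9* were lower, by -0.11 ± 0.040 (0.0281) and -0.18 ± 0.058 (0.0208). Leaving out the first or second IR dish or the second or the third K1030R dish left 1 call, that of *Slc7a1*, which also held in the insulin dishes (0.28, 4.54e-05), where *Slc3a2* (-0.03, 0.624) and *Slc6a9* (-0.11, 0.167) did not pass. *Slc3a2* was also lost without the second or the third JMO insulin dish (0.061 and 0.0508). In the insulin dishes *Slc1a4* was higher in K1030R than in IR (0.21, 0.0028), and *Slc7a3* (-0.52, 0.0371) and *Slc38a2* (-0.10, 0.00757) were lower. ∆CT was lower than IR in 3 of 10 and higher in 0 (14.8% of genes lower, 11.2% higher): *Slc3a2* by -0.18 ± 0.040 (0.00064), *Slc6a9* by -0.22 ± 0.058 (0.00578; -0.13 and 0.0506 without the third ∆CT dish) and *Slc38a2* by -0.09 ± 0.028 (0.0164; lost without the second IR dish or the third ∆CT dish, 0.107 and 0.0829, and without the second or the third JMO insulin dish, 0.0538 and 0.0556). In the insulin dishes these 3 did not pass (-0.07, -0.11 and -0.09, adjusted p = 0.283, 0.243 and 0.053). ∆CT and K1030R differed in 0 of 10 members by edgeR and by DESeq2 (3.43% of genes by edgeR), with 1, *Slc7a1* (-0.14, adjusted p = 0.128), at an unadjusted p below 0.05. For *Slc7a11* the interval of the difference from IR was -0.15 to 0.18 in K1030R and -0.23 to 0.10 in ∆CT.

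Insulin for 15 min changed no member past the threshold in any line: 0 of 10 in each of the 4 by edgeR, DESeq2 and limma-voom, against 1.87%, 0.156%, 1.01% and 0.364% of all genes by edgeR. These shares are for IR, K1030R, ∆CT and JMO in that order. At an unadjusted p below 0.05 there were 2, 0, 1 and 2. *Slc7a3* had the largest values, 0.48 ± 0.193 in IR (adjusted p = 0.217) and 0.48 ± 0.184 in JMO (0.509). *Slc38a2* stood 0.07 ± 0.028 higher in IR (0.247), 0.07 ± 0.032 in ∆CT (0.464) and 0.06 ± 0.028 in JMO (0.682), with the insulin dishes above all basal dishes in each of these lines, at 637 to 645 against 594 to 627 CPM in IR. Such separation was not particular to *Slc38a2*: it was also upward for *Slc3a2* and *Slc1a4* in K1030R and for *Slc3a2*, *Slc7a3* and *Slc7a11* in ∆CT. It was upward for *Slc7a3* in JMO and downward for *Slc38a1* in ∆CT. Its share over all genes was not counted, so nothing is read from it. For *Slc7a11* the log2 values were 0.02 in IR, 0.15 in K1030R and 0.13 in ∆CT, while JMO had -0.05 (adjusted p 0.673 or above). Setting aside *Slc7a3*, every 95% interval in IR lay within -0.21 to 0.18. The insulin effect did not differ from that in IR for any member in K1030R, ∆CT or JMO (0 of 10 each by edgeR and DESeq2; 0.37%, 0.00649% and 0.279% of genes), with 1, 0 and 0 at an unadjusted p below 0.05.

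**Figure D5:**
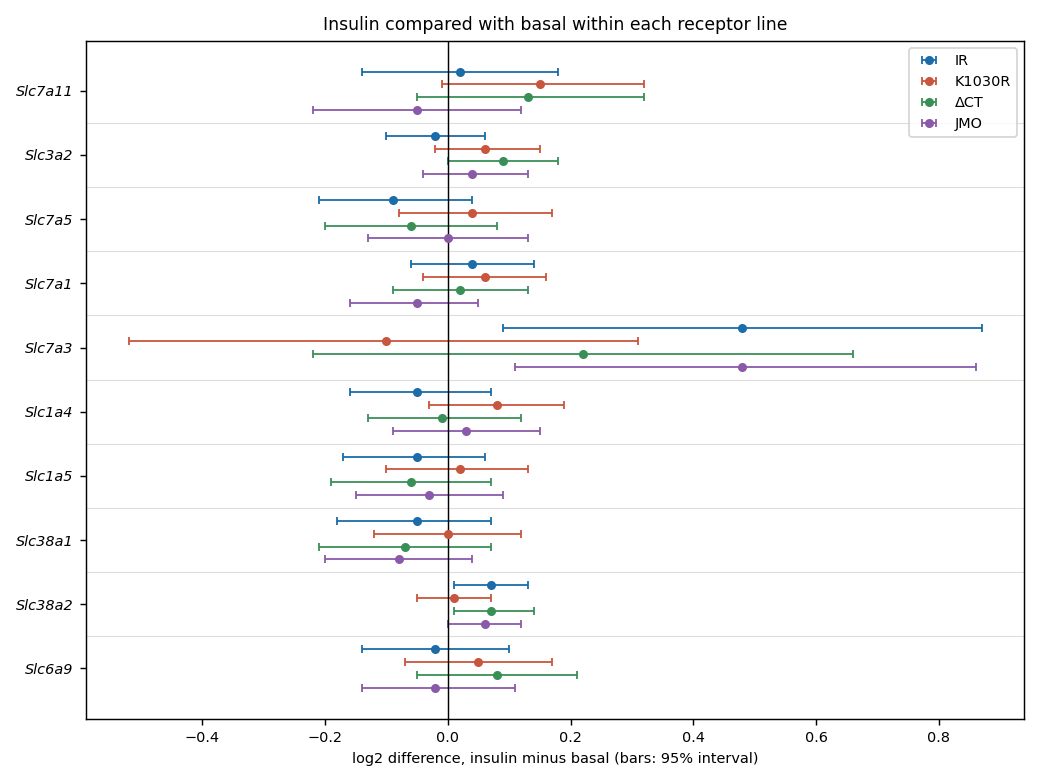
log2 difference between insulin and basal dishes of each carrier gene within each receptor line (points; bars are 95% intervals of the single gene). Most values lie between -0.1 and 0.15, and only *Slc7a3*, the gene with the fewest counts, reaches 0.48, in IR and JMO.

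The remaining amino acid carriers were followed as a list of 45 further genes, of which 22 were expressed highly enough to test. Against DKO, 11 were higher and 5 lower in IR, 7 and 4 in K1030R, 7 and 4 in ∆CT, and 9 and 2 in JMO. Over all genes the shares higher and lower were 25.6% and 24.1% in IR, 21.2% and 20.4% for K1030R, 23.4% and 22.9% for ∆CT, and 16.8% and 17.4% for JMO. The largest mean absolute log2 differences over the 4 lines, 1.67, 1.43 and 1.1, belonged to the glutamate carriers *Slc1a3* (GLAST) and *Slc1a2* (GLT-1) and to *Slc38a4*, a carrier of neutral and cationic amino acids. *Slc1a3* was at 14.5 to 15.5 CPM in DKO, 65.4 to 68.2 in IR, 48.7 to 51.5 in K1030R, 48.8 to 58.2 in ∆CT and 28.1 to 31.3 in JMO, a log2 difference of 2.16 in IR (adjusted p = 1.21e-25) and 0.98 in JMO (3.69e-14). *Slc1a2* was at 2.48 to 3.3 CPM in DKO and 11.4 to 12.6 in IR (2.13, 1.83e-14). It was at 4.55 to 6.81 CPM in K1030R (1.05, 1.69e-06) and 6.31 to 8.09 in ∆CT (1.45, 8.57e-10). JMO, at 4.66 to 6.43 CPM (1.09, 1.22e-06), overlapped K1030R. *Slc38a4* was at 34.2 to 37 CPM in DKO, 76.6 to 79.3 in IR (1.12, 4.07e-21) and 61.8 to 65.6 in JMO (0.83, 1.88e-16). Both *Slc43a2* and *Slc7a2* are named after their values were seen. *Slc43a2*, a carrier of large neutral amino acids, was lower in IR, K1030R and ∆CT (-1.46, -0.98 and -1.10, adjusted p = 9.99e-17, 1.85e-12 and 9.37e-14) and was not called in JMO (-0.05, 0.648). For *Slc7a2*, a further arginine carrier, the mean was 9.82 CPM in JMO and 1.55 to 3.19 CPM in the other basal groups (JMO minus DKO 1.98 ± 0.147, adjusted p = 5.7e-13).

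Of 18 genes of glutathione and thiol metabolism, the pathway that cystine uptake feeds, 17 were tested. In IR 4 were higher than DKO and 6 lower, in K1030R 4 and 2, in ∆CT 5 and 3, and in JMO 6 and 3, beside shares over all genes of 25.6% and 24.1%, 21.2% and 20.4%, 23.4% and 22.9%, and 16.8% and 17.4%. *Chac1*, which degrades glutathione and is an ATF4 target, was at 4.4 to 5.33 CPM in DKO, 14.9 to 18.3 in IR, 15.7 to 17.2 in K1030R, 14.9 to 18.8 in ∆CT and 6.14 to 6.94 in JMO, a log2 difference of 1.77 in IR (adjusted p = 1.03e-15) and 0.41 in JMO (0.00907). *Cth*, which makes cysteine from cystathionine, was higher by 0.70, 0.55, 0.68 and 0.63 in IR, K1030R, ∆CT and JMO (adjusted p = 6.13e-05, 0.00165, 9.78e-05 and 0.00046). Its basal means were 5.51 to 6.09 CPM in the 4 receptor lines and 3.78 in DKO, and JMO was not called against IR, K1030R or ∆CT (-0.07, 0.08 and -0.05, adjusted p = 0.71, 0.697 and 0.778). *Ggt7*, of the gamma-glutamyltransferase family, was higher by 0.45 in IR (0.000982) and 0.83 in JMO (1.54e-07). Outside the naming rule, *Gclc* and *Gclm* are named after their values were seen. They encode the subunits of the first enzyme of glutathione synthesis and are NRF2 targets. Both were lower than DKO in IR (-0.63 and -0.28, adjusted p = 6.04e-11 and 7.01e-06) and higher in JMO (0.22 and 0.14; 0.00111 and 0.0137). The lowest value of any of the 17 genes was -0.41 for K1030R and -0.31 for ∆CT. *Gclc* was therefore not as far below DKO in either line as in IR. The median over the 17 genes was -0.08 in IR and 0.08 in JMO, against 0.01 over all genes.

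All 12 listed regulators of these carriers were tested, and 4 were higher and 6 lower than DKO in IR, 3 and 6 in K1030R, 3 and 5 in ∆CT, and 1 and 2 in JMO. The shares over all genes were again 25.6% and 24.1%, 21.2% and 20.4%, 23.4% and 22.9%, and 16.8% and 17.4%. *Trib3*, an ATF4 target and inhibitor, had the widest span, at 7.12 to 7.45 CPM in DKO, 33.4 to 40.9 in IR, 33.2 to 35.2 in K1030R, 27.8 to 34.7 in ∆CT and 8.62 to 9.15 in JMO (log2 2.36 in IR, adjusted p = 1.82e-20, and 0.31 in JMO, 0.0298). *Atf4*, named here after its values were seen, was at 144 to 155 CPM in DKO, 201 to 215 in IR, 231 to 243 in K1030R, 213 to 249 in ∆CT and 128 to 141 in JMO, higher by 0.50, 0.67 and 0.67 in the first 3 lines (1.87e-10, 3.11e-13 and 2.72e-13) and lower by -0.14 in JMO (0.0252). *Myc* was lower in IR, K1030R and ∆CT (-1.24, -0.67 and -0.88, adjusted p = 2.23e-10, 2.17e-06 and 4.07e-08) and not in JMO (-0.14, 0.231). *Eif2ak2*, the RNA-activated kinase PKR, differed by -0.43, -0.80 and -1.09 (0.00072, 1.29e-06 and 1.84e-08) and not in JMO (0.01, 0.961). With insulin, *Atf4* was 0.25 higher in IR (0.000997) and 0.22 in ∆CT (0.0165), while none of the 10 carriers passed. No listed regulator was called for insulin in K1030R or JMO. *Atf4* was at 253 to 255 and 150 to 163 CPM with insulin in these 2 lines, also above every basal dish of the same line.

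The genes whose group means most resembled those of *Slc7a11* were *Nfu1*, *Slc26a7*, *Col5a2*, *Borcs7* and *Sufu*, with Pearson r of 0.991 to 0.985 over the 9 groups of log2 CPM. The groups share their lines, and the low DKO level by which *Slc7a11* was chosen enters every r, so this is a description. By Spearman correlation 0 of these 5 remained among the top 5. The closest member was the heavy chain *Slc3a2* (r = 0.945, rank 61 of 15192 ranked genes), followed by *Slc1a4* (0.895), *Slc7a5* (0.891), *Slc1a5* (0.823) and *Slc6a9* (0.754). *Slc7a1* (0.628) and *Slc38a1* (0.578) were less alike, and *Slc38a2* (-0.367) and *Slc7a3* (-0.355) ran the other way.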

How the data were processed

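Single-end, strand-specific mRNA libraries were quantified by the authors with fastp and kallisto against the mouse Ensembl 98 transcriptome and summed to genes; versions are not given in the sources used here. The deposited table holds estimated counts per gene (expected counts, 79.9% of values whole), with no normalization. The members and gene lists were chosen with earlier results of these data known.

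Counts were rounded and genes above 0.5 CPM in at least 4 libraries kept. One edgeR (version 4.0.16) quasi-likelihood model with TMM scaling and a mean for each of the 9 groups used all 26 libraries; p-values were adjusted by Benjamini-Hochberg over all 15402 genes tested and called below 0.05. glmTreat tested a minimum fold of 1.5, as the study's own analysis required. Differences are log2 values with their SE; group values are mean ± SD. RPKM used the exon union of GENCODE M21 (GRCm38), as do gene positions. Named genes were all members, the 3 with the largest mean absolute difference from DKO in each further list, the 5 most like *Slc7a11*, *Insr* and *Igf1r*. Totals of 17228982 to 24694828 counts limit mainly *Slc7a3*. The fit was tested on simulated data for IR against DKO. It called 56.7% of changes of 1.2-fold, 82.1% of 1.5-fold and 93.9% of 2-fold in the right direction. Small differences can therefore go uncalled. Alternatives were RLE scaling, other filters, unrounded counts, DESeq2 (1.42.0), limma-voom (limma 3.58.1), a replicate block, fits of only the groups compared, the insulin libraries and leaving out each library.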

Additional observations from a re-analysis of the deposited data

How the results depend on the processing

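No member called in the main analysis changed direction under any alternative, and the counts of members called against DKO changed by more than 1.5 times only with a minimum fold of 1.5, which left 3 (IR), 2 (K1030R), 2 (∆CT) and 0 (JMO) of 9 and 0 of 10 in each pair of receptor lines. Using the insulin libraries gave 0 calls between ∆CT and IR and 1 gene past the minimum fold between JMO and K1030R; fitting only the groups compared gave 1 call between ∆CT and IR, and dropping the filter gave 1 between ∆CT and K1030R. Leaving out single libraries gave 7 to 7, 7 to 8, 7 to 8 and 4 to 5 calls against DKO, 1 to 3 for K1030R and 2 to 3 for ∆CT against IR, 6 to 8, 5 to 7 and 6 to 8 for JMO against IR, K1030R and ∆CT, and 0 elsewhere. Without the third JMO insulin dish, a choice made after seeing the data, 5 members in place of 6 were lower in JMO than in the other lines with insulin. Signs that turned belonged to uncalled values: with the insulin libraries *Slc7a3* was 0.10 in IR and 0.40 in JMO against DKO and *Slc38a2* 0.03 and 0.02; *Slc38a2* in JMO against IR was 0.01 with RLE scaling or DESeq2 and 0 with only those groups (single libraries left out: -0.02 to 0.02); with single libraries left out, *Slc7a1* and *Slc7a3* in JMO against DKO ranged from -0.09 to 0.02 and from -0.16 to 0.04. Replicate numbers showed no pairing on the median (median residual correlation of equally numbered libraries 0.000536, of others -0.000485). A median over all groups cannot exclude shared handling between particular groups. With a replicate block 1 call changed, *Slc7a11* in JMO against IR, which was gained (adjusted p = 0.0275). It was also gained without the filter (0.0118), with limma-voom (0.0473) and with only the groups compared (0.0296), where *Slc6a9* in JMO against DKO was gained too (0.03). Dropping the filter lost *Slc38a2* in K1030R against DKO (0.176), in JMO against ∆CT (0.165) and in ∆CT against IR (0.104). It also lost *Slc38a1* in JMO against K1030R (0.06) and *Slc3a2* in K1030R against IR (0.0578). Fitting only the groups compared lost *Slc38a2* in JMO against ∆CT (0.08) and in ∆CT against IR (0.271). *Slc3a2* in K1030R against IR (0.112) and *Slc6a9* in ∆CT against IR (0.11) were lost there too. DESeq2 did not call *Slc7a11* (0.0684) or *Slc38a1* (0.0632) in JMO against K1030R, or *Slc3a2* in K1030R against IR (0.0628). Levels per length depend on the transcript model: with the longest transcript in place of the exon union, basal IR levels were 2.75 (*Slc7a11*), 42.4 (*Slc3a2*), 15.5 (*Slc7a1*), 0.677 (*Slc7a3*), 12.3 (*Slc1a5*), 4.5 (*Slc38a1*), 100 (*Slc38a2*) and 23.9 (*Slc6a9*) RPKM, while *Slc7a5* and *Slc1a4* moved by less than 1 SD. Of the 5 genes most like *Slc7a11*, 0 were among the top 5 by Spearman correlation. The causes were not tested. Depth limits *Slc7a3* most.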
